A study of Mus musculus with 15 samples.

Results

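The respiratory chain and ATP synthase genes are here the genes named for the protein subunits of complexes I to V of mitochondria. They were chosen by symbol (Nduf, Sdh, Uqcr, Cyc1, Cox4 to Cox8, Atp5, and the mt-Nd, mt-Co, mt-Cytb and mt-Atp genes), with names containing -ps left out and a mean of at least 1 scaled count over 15 libraries required. Of 54108 gene symbols, 96 matched and 86 passed, 79 from the nuclear and 7 from the mitochondrial genome. By symbol, complex I had 41 members, complex II 4, complex III 10, complex IV 15 and complex V 16. Ndufa4, which is found in complex IV, was thus counted in complex I throughout. Atp5s, a factor rather than a subunit, was counted in complex V.

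The libraries came from sensory neurons of the dorsal root ganglia (L2 to L6) of adult female C57BL/6J mice, 8 to 12 weeks old, labelled from the hairy skin of the hindpaw with a fluorescent lectin (WGA-488) and collected by flow cytometry, about 3000 cells per mouse and 1 mouse to a library. The SCI group (n = 5) had a laminectomy and a clip compression of the spinal cord at T10, and the sham group (n = 5) the laminectomy without the clip. Both were given gentamicin once after surgery and saline for 4 days, without analgesics. Both were collected 4 days after surgery. The naïve group (n = 5) had no surgery. Naïve mice were kept in groups while sham and SCI mice were caged alone. A comparison with naïve mice is therefore also a comparison of housing and of the treatment given after surgery.

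Complexes I to IV pass electrons from NADH and succinate to oxygen and, except for complex II, pump protons across the inner mitochondrial membrane. Complex V, the ATP synthase, lets the protons back and makes ATP. Subunits of every complex but II are encoded partly in the nucleus, where each gene is transcribed separately, and partly in the mitochondrial genome, which is transcribed as long precursors and cut at the tRNAs into single mRNAs. Neurons with long axons depend on this system for the ATP that ion pumping and transport consume.

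A scaled count is the number of reads counted in a gene divided by a constant for its library, with no division by gene length. The libraries held 1321632 to 7465583 reads in genes. The SCI libraries had 3000636 to 4385542 reads, the sham libraries 2568656 to 7389487 and the naïve libraries 1321632 to 7465583. The marker genes of sensory neurons were abundant in all 15 libraries (Scn10a, the Nav1.8 sodium channel, averaged 817 scaled counts over all libraries). Markers of satellite glia (8 of 8 genes with a mean of at least 1, summing to 1364 to 3202 scaled counts) and of Schwann cells (7 of 7, summing to 999 to 2209) were abundant too, and those of red blood cells were at or near 0 (0 of 5 genes passed, with sums of 0 to 6.92). In bulk RNA, fewer cells of a type and less RNA per cell cannot be told apart.

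Of the 13 mRNAs of the mitochondrial genome, 7 were counted in quantity and 6 were at or near 0. The 7 counted ones, mt-Nd1, mt-Nd2, mt-Nd4, mt-Nd5 and mt-Nd6 of complex I, mt-Cytb of complex III and mt-Co1 of complex IV, held 76300 reads over the 15 libraries. The other 6, mt-Co2, mt-Atp8, mt-Atp6, mt-Co3, mt-Nd3 and mt-Nd4l, held 20 reads. mt-Co2 had 13 of these reads, mt-Atp6 5 and mt-Co3 2. mt-Atp8, mt-Nd3 and mt-Nd4l had 0 of 61417597 reads in genes, which allows up to 3 counted reads but sets no limit on the level of the mRNAs. No mitochondrially encoded subunit of the ATP synthase was therefore among the members.

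The 6 mRNAs lie next to each other on the mitochondrial genome (chrM:7013-10173, mm10), between mt-Co1 and mt-Nd4. A copy of this stretch of mitochondrial DNA lies in the nuclear genome on chromosome 1 (chr1:24611535-24616197, minus strand), annotated in GENCODE M21 as 7 unprocessed pseudogenes. These copies were near 0 as well, with 27 reads over all 15 libraries. Other annotated copies on chromosome 2 had more, with 150 reads in Gm13341, which shared 138 windows with mt-Co2, and 158 in Gm13340, which shared 220 windows with mt-Co1. Every stretch of 75 bases, the read length, was taken from each mRNA and looked for in all other annotated transcripts. The share of such windows with an identical match elsewhere was 99.5% for mt-Co2, 99.5% for mt-Atp6, 99.9% for mt-Co3, 97.8% for mt-Nd3 and 98.7% for mt-Nd4l. The neighbours mt-Nd4 and mt-Co1 were covered in part, with 61.5% and 39.8%. The share was 5.71% for mt-Nd2 and 1.66% for mt-Nd5, and it was 0% for mt-Nd1, mt-Nd6 and mt-Cytb. The exception was mt-Atp8, at 0 reads with 0% of its windows matched. The chromosome 1 copies are annotated with a gap of 233 bases at the place that faces mt-Atp8 (chr1:24614652-24614884), and only annotated transcripts were searched.

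The windows below show what a 75-nt read meets at mt-Co2, which was near 0, and at the edge of the copied part of mt-Co1. The mt-Co2 window is bases 301 to 375 of the gene (chrM:7313-7387, plus strand) and its copy is in Gm28661 (chr1:24615191-24615265, minus strand). The mt-Co1 window is bases 1054 to 1128 (chrM:6381-6455, plus strand) and its copy opens Gm29216 (chr1:24616123-24616197, minus strand). Capitals mark bases that differ between a gene and its copy.
mt-Co2: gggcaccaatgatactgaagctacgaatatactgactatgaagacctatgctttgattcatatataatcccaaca
Gm28661: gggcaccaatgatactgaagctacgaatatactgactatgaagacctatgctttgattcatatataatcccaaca
mt-Co1: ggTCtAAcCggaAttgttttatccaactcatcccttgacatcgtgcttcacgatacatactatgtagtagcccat
Gm29216: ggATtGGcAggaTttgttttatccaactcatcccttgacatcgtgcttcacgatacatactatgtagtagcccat
The mt-Co2 pair held no differing base in this window or over the 681 bases that could be aligned. The mt-Co1 pair differed at 6 bases, all at the left edge, of 492 aligned.

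Among the 7 counted mRNAs, mt-Co1 and mt-Nd4, which had the largest shares of matched windows, had the lowest levels per kilobase. mt-Cytb had 251 scaled counts per kb, mt-Nd1 228, mt-Nd2 197, mt-Nd5 197 and mt-Nd6 192, against 159 for mt-Co1 and 101 for mt-Nd4. When only windows without an identical copy were taken as the length, the levels were 278 per kb for mt-Co1 and 278 for mt-Nd4, beside 268 for mt-Cytb, 247 for mt-Nd1, 225 for mt-Nd2, 224 for mt-Nd6 and 208 for mt-Nd5. How reads with several matches were treated is not given in the sources used here. mt-Nd6 is the one mRNA of the 13 on the minus strand. The libraries were made with a stranded kit, but whether the counting used strand is not given in the sources used here, so its reads may include transcripts of the other strand.

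**Figure D1:**
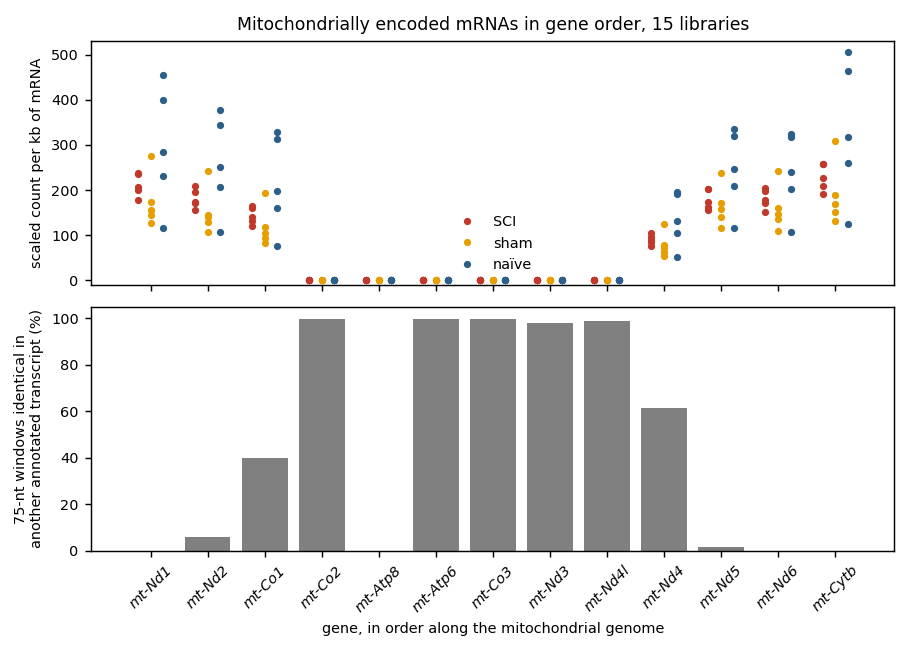
The upper plot gives the scaled count per kb of mRNA for the 13 mitochondrially encoded mRNAs in gene order, 1 point per library, by group. The lower plot gives the percent of 75-nt windows of each mRNA found identically in another annotated transcript. The 6 mRNAs from mt-Co2 to mt-Nd4l lie at or near 0 in all 15 libraries, and 5 of them have 97.8% or more of their windows shared.

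Per kilobase of principal transcript, the mitochondrially encoded members were above most nuclear ones. The 7 had a median of 197 scaled counts per kb (range 101 to 251) and the 79 nuclear members a median of 57.9 (range 5.24 to 175). The median over the 15838 tested genes with an annotated length was 12.1 per kb. By complex, the nuclear medians per kb lay close together, at 55.2 for complex I (n = 36), 68.5 for complex II (n = 4), 54.2 for complex III (n = 9), 57.4 for complex IV (n = 14) and 66.3 for complex V (n = 16), and their ranges overlapped. Lengths are those of the annotated principal transcript, and a gene whose neurons use a shorter 3′ end comes out too low. Ndufb2 (principal transcript of 4371 bases, 6.99 scaled counts per kb) and Atp5g1 (4715 bases, 11.5 per kb) have the longest annotated transcripts.

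**Figure D2:**
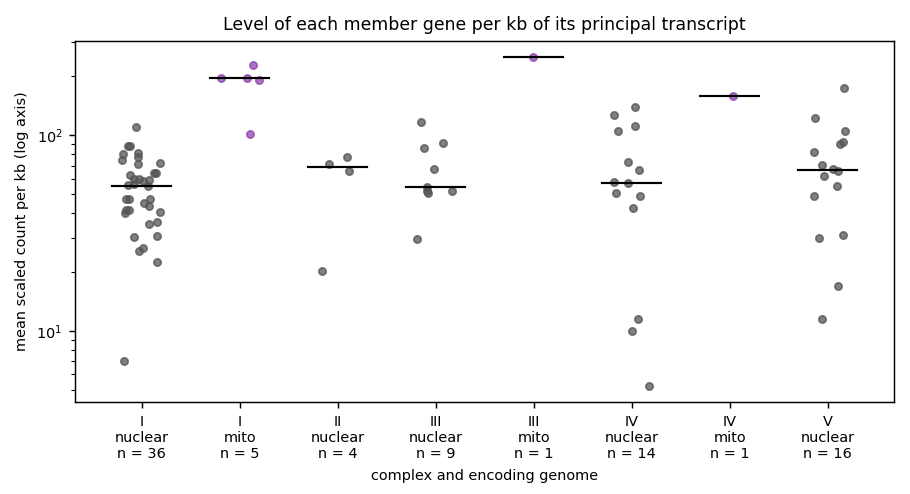
Each point is a member gene, placed by its mean scaled count over 15 libraries per kb of principal transcript on a log axis, by complex and encoding genome. Bars mark medians. The mitochondrially encoded members lie between 101 and 251 per kb, and the nuclear medians of the 5 complexes lie between 54.2 and 68.5.

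In complex I, Ndufs1, the largest core subunit, with iron-sulfur clusters, had 128, 126, 128, 140.5 and 137 scaled counts in SCI libraries, against 115, 145, 124, 112 and 118 in sham and 142, 122.6, 123.2, 112 and 119 in naïve libraries. It averaged 132 ± 6.6 in SCI, 122.8 ± 13.3 in sham and 124 ± 11.4 in naïve libraries (SD, n = 5 each), and the groups overlapped. The lowest complex I member was Ndufa1, a small accessory subunit encoded on the X chromosome (chrX:37187588-37191163), with a mean of 23.5 scaled counts. Its 419-base transcript gave 56.1 scaled counts per kb, close to the complex I median.

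All 4 genes of complex II, the succinate dehydrogenase of the citric acid cycle, were members. Sdha, the flavoprotein that oxidises succinate, had 229, 221, 225, 233 and 246 scaled counts in SCI libraries, against 191, 269, 198, 195 and 197 in sham and 275, 239, 235, 245 and 186 in naïve libraries. Sdhb, the iron-sulfur subunit, averaged 81.5 scaled counts over all libraries. The membrane anchors Sdhc and Sdhd averaged 64.4 and 80.9. Per kilobase, Sdha had 77.8 scaled counts, Sdhb 71.3, Sdhd 65.7 and Sdhc 20.3, the last over a principal transcript of 3171 bases.

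In complex III, Cyc1, the cytochrome c1 subunit, averaged 103 ± 6.38 scaled counts in SCI, 99.0 ± 14.0 in sham and 106 ± 12.9 in naïve libraries (SD, n = 5 each). Uqcrc2, a matrix-facing subunit of the complex, averaged 102 ± 8.09 in SCI, 92.7 ± 17.9 in sham and 99.6 ± 16.2 in naïve libraries. Uqcrb, a small accessory subunit, was the lowest of the complex with 29.0 scaled counts, and 29.1% of its windows were shared with processed pseudogenes.

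Complex IV has paired isoforms, and in each pair the widely expressed gene was far above the one known from muscle, lung or testis. Cox4i1, the common form of subunit 4, had a mean of 96.9 scaled counts and Cox4i2, known from lung, had 3.84. Cox6a1 had 79.3 and the muscle form Cox6a2 0.209 (7 reads in all). Cox6b1 had 65.0 and the testis form Cox6b2 6.75. Cox7a2 had 48.2, its relative Cox7a2l 52.8, and the muscle form Cox7a1 3.92. Cox7b had 51.0 and Cox7b2 0.159 (10 reads). Cox8a had 61.3, Cox8b 0.028 (2 reads) and Cox8c 0 reads. The smallest mean among members was the 3.84 of Cox4i2, and the largest mean among the 10 matching names that did not pass was the 0.233 of mt-Co2.

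The minor isoforms were counted in few reads. Cox4i2 had 3.11, 5.01, 3.62, 4.13 and 6.28 scaled counts in SCI libraries, against 5.11, 2.44, 6.28, 5.43 and 3.51 in sham and 0, 3.57, 4.13, 2.19 and 2.81 in naïve libraries. The 0 was in naïve 1, the library with the fewest reads, where 3 reads would be 2.37 scaled counts. Cox7a1 ranged from 1.40 to 7.23 in SCI, from 2.35 to 5.44 in sham and from 0.731 to 5.79 in naïve libraries. Of 11 striated muscle markers, 4 passed the filter. Myh6, a cardiac myosin heavy chain, averaged 73.0 scaled counts, and Acta1, skeletal muscle actin, 2.999. The part of other cells in these levels was not tested.

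The ATP synthase held the most abundant nuclear member. Atp5b, the catalytic beta subunit (chr10:128083273-128090391), had 319, 291, 339, 291 and 356 scaled counts in SCI libraries, against 211, 420, 251, 279 and 231 in sham and 573, 349, 396, 521 and 196 in naïve libraries. Per kilobase it had 175 scaled counts, the highest level of a nuclear member, and 9 nuclear members were above the lowest mitochondrially encoded one (101). The next were Cox6a1 (139), Cox4i1 (127), Atp5g3 (122) and Uqcrh (117). Atp5a1, the alpha subunit that forms the F1 head with Atp5b, averaged 118 ± 9.33 scaled counts in SCI, 103 ± 31.9 in sham and 142 ± 44.97 in naïve libraries. The lowest of the complex was Atp5l, the membrane subunit g, with 16.9, and 63.4% of its windows were shared with pseudogenes.

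The c subunits, which form the rotating ring of the ATP synthase, come from Atp5g1, Atp5g2 and Atp5g3. Their last 78 codons are read to the same residues, but 63 of the 234 bases differ between the genes, so that reads from the shared protein part can be told apart. The window below is the first 75 bases of that stretch (principal transcripts, bases 227 to 301, 345 to 419 and 341 to 415). Capitals mark the 22 positions that are not the same in all of the genes.
Atp5g1: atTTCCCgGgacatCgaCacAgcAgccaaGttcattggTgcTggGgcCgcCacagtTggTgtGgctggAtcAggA
Atp5g2: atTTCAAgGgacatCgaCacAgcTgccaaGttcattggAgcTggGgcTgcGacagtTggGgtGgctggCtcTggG
Atp5g3: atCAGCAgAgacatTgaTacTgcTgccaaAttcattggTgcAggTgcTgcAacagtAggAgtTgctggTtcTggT
Atp5g3 was the most abundant of the 3, with 86.3, 79.7, 88.0, 89.4 and 92.8 scaled counts in SCI libraries, against 63.4, 109, 77.5, 75.3 and 67.7 in sham and 128, 96.4, 89.7, 119 and 63.3 in naïve libraries. Atp5g1 averaged 54.2 and Atp5g2 22.0 over all libraries. Atp5g2 had 86.9% of its windows in other transcripts. All 571 such windows were in the processed pseudogene Gm10175, on chromosome 7, and 367 were also in Gm10231, on chromosome 17. Gm10175 was identical to it over 645 aligned bases and had 15 reads in all, and Gm10231 was identical over 441 bases and had 0.

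Shared windows were common among the nuclear members. Of the 79, 24 had at least 1 window in another annotated transcript and 13 had at least 10% of their windows there. The 13 had a median of 42.3 scaled counts per kb, against 59.9 for the 55 nuclear members with no shared window, with overlapping ranges (25.6 to 105.3 and 5.24 to 175). Ndufs3, a core subunit of complex I, had 26.7 scaled counts and shared 27.1% of its windows, all with Gm12251. The levels of these genes are uncertain for that reason.

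The design asks whether the members differed between injured, sham and naïve mice. No member passed an adjusted p of 0.05 in any comparison (limma, Benjamini-Hochberg adjustment over 16000 genes), and no gene of the 16000 did (0.0% called in each). At an unadjusted p under 0.05, 724 of the 16000 genes passed in SCI vs naïve, 623 in SCI vs sham and 2651 in sham vs naïve. In SCI vs naïve, the lowest adjusted p among members was 0.898, in SCI vs sham 0.897 and in sham vs naïve 0.300. At an unadjusted p under 0.05, 0 of 86 members passed in SCI vs naïve, where 0.794% of all genes were lower and 3.73% higher. In SCI vs sham 0 of 86 passed as well, where 3.24% of all genes were lower and 0.65% higher. In sham vs naïve 14 members were lower, 7 nuclear and 7 mitochondrially encoded, where 3.19% of all genes were lower, and 1 was higher, where 13.4% of all genes were higher. In no comparison were the 2 groups of libraries apart for any member. In SCI vs naïve 0.138% of all genes had every SCI library below every naïve library and 0.325% had the opposite. The shares lower and higher were 1.26% and 0.256% in SCI vs sham and 0.0563% and 0.588% in sham vs naïve. On the recovered reads, edgeR's quasi-likelihood test called 0 genes in each comparison, and DESeq2 called 0 genes in SCI vs naïve, 4 in SCI vs sham (0.025%) and 0 in sham vs naïve, with 0 members among them. The call in limma depended on the libraries. Without naïve 5, 22 members were called in sham vs naïve, all lower (15 nuclear and 7 mitochondrially encoded), where 3.38% of all genes were called lower. With library quality weights 42 members were called in sham vs naïve, all lower, where 5.91% of all genes were called lower, and 34 in SCI vs sham, all higher, where 6.39% of all genes were called higher, and 0 in SCI vs naïve, where 0.00625% were.

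The mitochondrially encoded mRNAs varied widely between libraries. mt-Cytb, the core of complex III, had 260, 219, 294, 239 and 296 scaled counts in SCI libraries, against 150, 352, 193, 216 and 174 in sham and 579, 297, 364, 531 and 143 in naïve libraries. Naïve 1 and naïve 4 were above all other libraries, and naïve 5 and sham 1 below all others, so the highest and the lowest library were both naïve. The log2 difference, between group means of log2(scaled count + 1), was -0.40 ± 0.29 (SE) in SCI vs naïve, with an adjusted p of 0.898 in limma. It was 0.33 ± 0.29 in SCI vs sham (adjusted p of 0.897 in limma) and -0.73 ± 0.29 in sham vs naïve (adjusted p of 0.300 in limma). The other 6 followed the same pattern. All 7 were lower in SCI vs naïve (median log2 difference -0.38, range -0.43 to -0.30), higher in SCI vs sham (median 0.29, range 0.16 to 0.33) and lower in sham vs naïve (median -0.67, range -0.75 to -0.52), with none of these past the test. The size of these differences depended on depth and on single libraries. A depth term, or leaving out naïve 1 and naïve 4 together, turned some directions. With the log2 library total as a term the medians were -0.01, -0.09 and 0.07, and without naïve 1 and naïve 4 the first was 0.06. Leaving out 1 library, without that term, changed the size of the medians but turned none. It gave -0.21 (without naïve 1) to -0.67 (without naïve 5) in SCI vs naïve. In SCI vs sham it gave 0.18 (without sham 1) to 0.47 (without sham 2). Over all 16000 genes the median was 0.08, -0.07 and 0.17 in these comparisons. mt-Nd5, of complex I, was the most abundant member of all with 328 ± 39.2 scaled counts in SCI, 300.3 ± 84.1 in sham and 448 ± 163 in naïve libraries (SD, n = 5 each).

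The nuclear members lay on the same side as the mitochondrially encoded ones in each comparison, with smaller differences. Their median log2 difference was -0.06 in SCI vs naïve (18 higher, 61 lower), 0.14 in SCI vs sham (70 higher, 9 lower) and -0.20 in sham vs naïve (8 higher, 71 lower). Of all 16000 genes, 30.3% were lower in SCI vs naïve, 65.7% in SCI vs sham and 22.9% in sham vs naïve. The first nuclear median turned to 0.08 with the log2 library total as a term, 0.11 without naïve 1 and naïve 4, and 0.01 without naïve 1 alone. The others turned to -0.03 and 0.12 with that term. For Atp5b, whose values stand above, the log2 difference was -0.26 ± 0.23 (SE) in SCI vs naïve, 0.24 ± 0.23 in SCI vs sham and -0.50 ± 0.23 in sham vs naïve, and the adjusted p in limma was 0.898, 0.897 and 0.301. The 3 comparisons share their groups and are not independent of each other.

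By complex, the medians of the nuclear members differed little. In SCI vs sham they were 0.13 for complex I, 0.08 for II, 0.16 for III, 0.17 for IV and 0.14 for V, and in SCI vs naïve -0.04, -0.03, -0.02, -0.09 and -0.13 in the same order. In sham vs naïve they were -0.17, -0.13, -0.21, -0.27 and -0.25. Within complex V the 5 F1 genes, which include Atp5a1 and Atp5b, had a median of -0.39 in sham vs naïve (range -0.50 to -0.24). The 3 c subunit genes had a median of -0.06 but were not alike. Atp5g3 was at -0.32, inside the F1 range, Atp5g1 at -0.06 and Atp5g2 at -0.02. Within complex I the 7 nuclear core subunits had a median of -0.12 and the 29 accessory ones -0.18. No difference between complexes was tested.

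**Figure D3:**
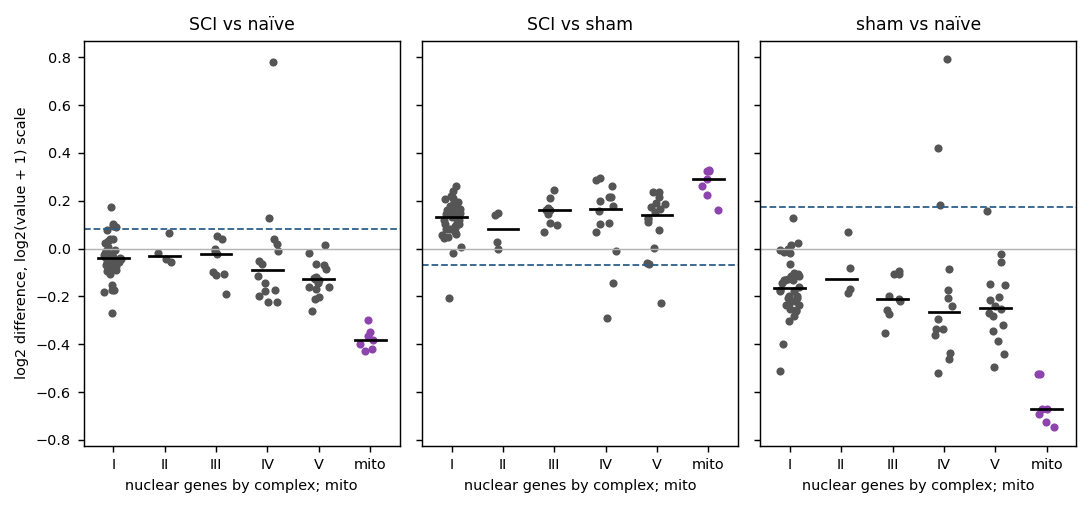
Each point is the log2 difference of a member on the log2(scaled count + 1) scale, for nuclear genes by complex and for the 7 mitochondrially encoded genes (mito). Short bars mark medians and the dashed line the median of all 16000 genes. The mitochondrially encoded genes lie between -0.75 and -0.52 in sham vs naïve, and no point in any of the 3 comparisons passed the adjusted test.

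The members with the largest nuclear differences came mostly from complexes IV and V. In SCI vs naïve the lowest were Ndufa4, Atp5b, Cox6b1 and Cox8a and the highest Cox4i2, Ndufa8, Cox7a1 and Ndufa9. In SCI vs sham the highest were Cox8a, Cox7b, Cox6a1 and Ndufb9 and the lowest Cox7a1, Atp5s, Ndufb2 and Cox6b2. In sham vs naïve the lowest were Cox8a, Ndufa4, Atp5b and Cox6a1 and the highest Cox4i2, Cox7a1, Cox6b2 and Atp5s. Ndufa4 carries a complex I name but is found in complex IV, and Atp5s is a factor of the ATP synthase rather than a subunit. Cox8a, a small subunit of complex IV, had 55.7, 54.9, 66.6, 55.5 and 64.2 scaled counts in SCI libraries, against 39.1, 73.2, 45.1, 46.7 and 42.1 in sham and 111, 58.1, 67.0, 105.2 and 34.4 in naïve libraries. Its log2 difference was 0.30 ± 0.24 (SE) in SCI vs sham and -0.52 ± 0.24 in sham vs naïve, with an adjusted p in limma of 0.897 and 0.301. Cox4i2 went the other way, at 0.78 ± 0.37 in SCI vs naïve and 0.79 ± 0.37 in sham vs naïve (adjusted p of 0.898 and 0.301 in limma), on the low counts given above.

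**Figure D4:**
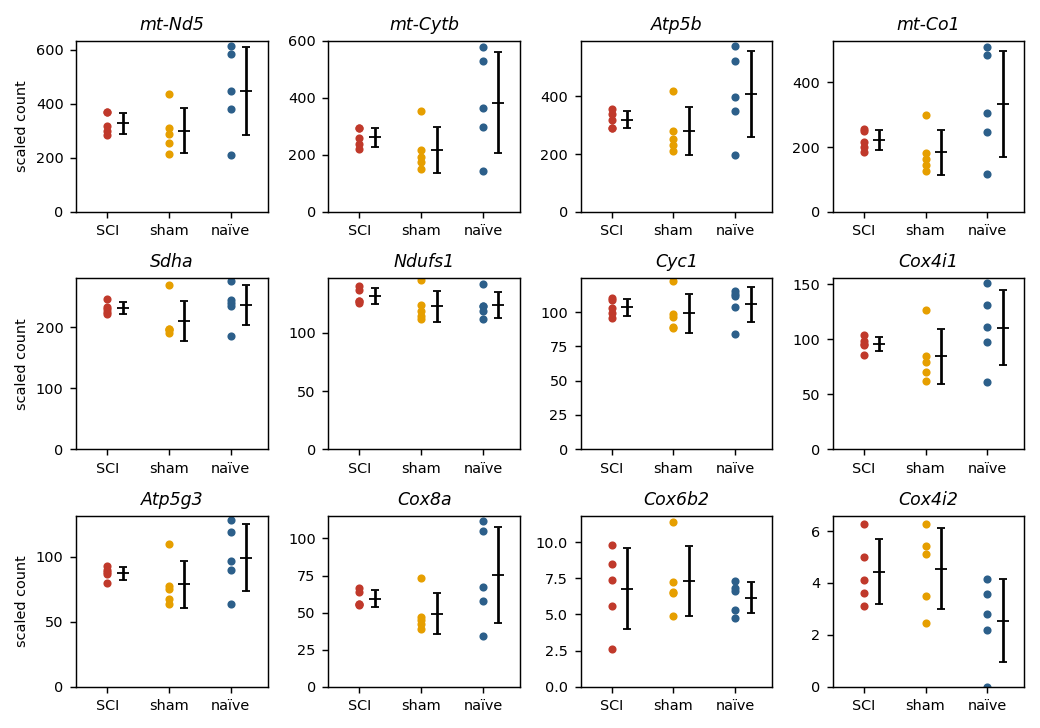
Scaled counts of 12 members in each library by group, with the mean and SD of each group (n = 5) beside the points and linear axes from 0. The naïve libraries span the widest range for mt-Cytb (143 to 579) and Atp5b (196 to 573), and the SCI libraries the narrowest (219 to 296 and 291 to 356).

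The members moved with the depth of the libraries. Summed over the 7 mitochondrially encoded members, the level was 1385, 1206, 1600, 1316 and 1589 scaled counts in SCI libraries, against 852, 1900, 1112, 1216 and 1004 in sham and 2960, 1611, 1958, 2774 and 819 in naïve libraries. Ordered by reads, the sum went down in 11 of 14 steps from one library to the next. It was highest in naïve 1 and naïve 4, the libraries with the fewest reads (1321632 and 1431111), and lowest in naïve 5 and sham 1, those with the most (7465583 and 7389487). Some libraries of different groups but like depth had like sums of the mitochondrially encoded members. SCI 3 (3180289 reads) had 1600 and naïve 2 (3228060 reads) 1611. Sham 2 (2568656 reads) had 1900 and naïve 3 (2532675 reads) 1958. Sham 1 had 852 and naïve 5 819. Only 1 naïve library and no sham library lay inside the depth range of the SCI libraries, so depth and group are partly confounded.

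The nuclear members went the same way along the depth order, with an exception. Their sum was 4821 ± 199 scaled counts in SCI, 4431 ± 898 in sham and 5222 ± 1118 in naïve libraries (SD, n = 5 each), and it also went down in 11 of 14 steps. SCI 3 had 4749 and naïve 2 5033, and sham 1 had 3691 and naïve 5 3620. Sham 2 had 5967 against 4896 in naïve 3 at a like depth, so this pair differed. The mitochondrially encoded sum over the nuclear sum was 0.318 in sham 2 and 0.400 in naïve 3. The ratio of mitochondrially encoded to nuclear sums was 0.294 ± 0.030 in SCI, 0.270 ± 0.032 in sham and 0.372 ± 0.099 in naïve libraries, and within the naïve group it was 0.460 and 0.452 in naïve 1 and naïve 4, 0.320 in naïve 2, 0.400 in naïve 3 and 0.226 in naïve 5.

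**Figure D5:**
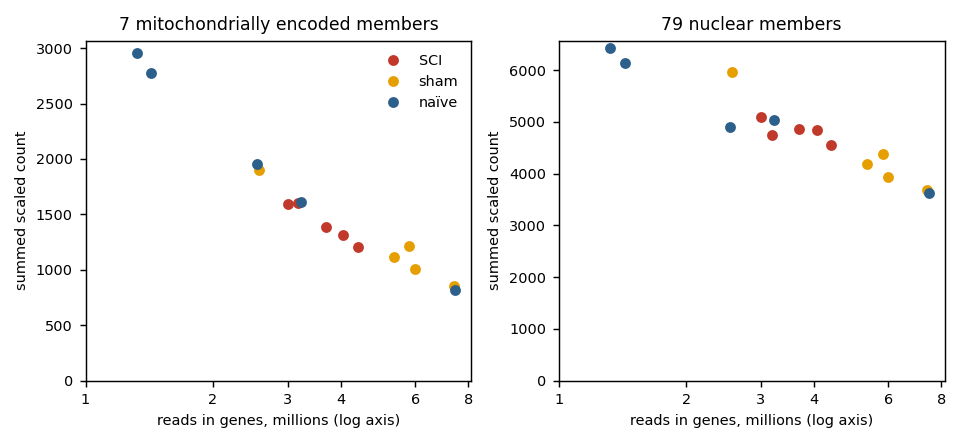
Summed scaled counts of the 7 mitochondrially encoded members (left) and the 79 nuclear members (right) against the reads in genes of each library on a log axis, 1 point per library, by group. Both sums go down in 11 of 14 steps along the axis, in the left plot to 819 in the deepest library, against 2960 in the shallowest.

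In reads, the members grew far less than the libraries did. Naïve 5 had 5.65 times the reads of naïve 1, and 1.56 times the reads in the mitochondrially encoded members (5828 against 3743). The factor was 3.17 for the nuclear members, 2.27 for the F1 genes of complex V, 2.48 for complex IV, 3.68 for nuclear complex I, 2.61 for the genes of cytosolic ribosomal proteins, and a median of 7.27 over the 15179 genes with a read in naïve 1. It was 1.74 for Cox8a, 1.92 for Atp5b, 3.805 for Sdha and 4.68 for Ndufs1. Short genes as a class also grew less than the libraries. The factor was 3.75 for all tested genes with a principal transcript under 1 kb, and 6.38 for those of 4 kb or more. The nuclear members had a median principal transcript of 861 bases, and nuclear complex II was at 3.81. The part of transcript length in these factors was not tested. mt-Cytb had 732 reads in naïve 1, which is 0.640 reads per base, and 1019 in naïve 5, which is 0.891 reads per base. Sdha had 0.120 and 0.457 reads per base of principal transcript. In no library did mt-Cytb pass 1.04 reads per base. Over its principal transcript, Atp5b reached 0.805 reads per base in sham 4. Over the union of annotated exons, which gave 0.364 for Atp5b, 4 of 15838 annotated genes passed 1 read per exon base in some library, mt-Cytb among them, and of 16 genes above 0.75, 5 were mitochondrially encoded members (mt-Cytb, mt-Nd1, mt-Nd5, mt-Nd6 and mt-Nd2). Whether duplicate reads were removed before counting is not given in the sources used here, and its part in these values was not tested.

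Without naïve 1 and naïve 4, the libraries with the fewest reads, the median difference in sham vs naïve was -0.24 for the mitochondrially encoded and -0.02 for the nuclear members.

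Other gene groups moved in the same libraries. The markers of sensory neurons summed to 3985 ± 359.6 scaled counts in SCI, 3401 ± 689 in sham and 4769 ± 1320 in naïve libraries (SD, n = 5 each), and all 10 were lower in sham vs naïve with a median log2 difference of -0.46. Those of satellite glia summed to 2049 ± 163, 1758 ± 277 and 2408 ± 679 in the same order, and those of Schwann cells to 1375 ± 71.4, 1217 ± 183 and 1771 ± 493. The satellite glia markers were mixed, with 6 lower and 2 higher in sham vs naïve (range -0.79 to 0.53). In SCI vs naïve 5 of them were lower and 3 higher. All 7 Schwann cell markers were lower in both comparisons. The genes of cytosolic ribosomal proteins, which are no part of mitochondria, had a median of -0.14 in SCI vs naïve, 0.14 in SCI vs sham and -0.27 in sham vs naïve over 83 genes. Markers of myelinated sensory neurons had medians of 0.00, -0.07 and 0.19 in these comparisons. Macrophage markers (5 of 6 tested) summed to 9.33 to 65.1 scaled counts in SCI, 7.72 to 55.6 in sham and 13.9 to 180 in naïve libraries, endothelial markers (4 of 5) to 6.44 to 24.9, 8.44 to 24.4 and 3.89 to 10.4, and fibroblast markers (5 of 5) to 289 to 653, 372 to 577 and 345 to 1762. Their part in the differences of the respiratory genes was not tested.

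Genes that build and feed the chain were examined as lists, and no gene of any list passed the adjusted test in a comparison (limma, adjusted over 16000 genes). In sham vs naïve, where the members were lower, the genes for maintenance and expression of mitochondrial DNA had a median log2 difference of 0.33 (22 of 24 genes tested, 21 higher and 1 lower), against 0.17 for all genes. Of all 16000 genes, 12343 were higher and 3657 lower in this comparison. Tfam, which packages mitochondrial DNA and starts its transcription, averaged 37.4 scaled counts in sham and 29.9 in naïve libraries. At an unadjusted p under 0.05, 8 of the 22 were higher, where 13.4% of all genes were higher. The most abundant of the list were Lrpprc, which keeps mitochondrial mRNAs stable, with 125 scaled counts, and Polg, the mitochondrial DNA polymerase, with 117. Of the transcriptional regulators of mitochondrial genes, 15 of 15 were higher in sham vs naïve with a median of 0.28, where 12343 of all 16000 genes were higher. Ppargc1a, a coactivator of mitochondrial biogenesis, averaged 68.5 scaled counts in SCI, 87.1 in sham and 68.8 in naïve libraries. The most abundant regulators were Yy1 with 131 and Hif1a with 122.

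Assembly factors, which are needed to put the complexes together but are not part of them, lay near the median of all genes. In sham vs naïve their medians were 0.14 for complex I (17 genes), 0.14 for complex II (4), 0.15 for complex III (6), 0.12 for complex IV (20) and 0.13 for complex V (5). In SCI vs sham they were -0.06, 0.03, 0.02, -0.09 and -0.12. Among the most abundant, means were 53.3 scaled counts for Foxred1 of complex I, 58.2 for Sdhaf2 of complex II, 89.0 for Uqcc1 of complex III, 122.95 for Pnkd, listed with complex IV, and 42.9 for Tmem242 of complex V. The 77 genes of mitochondrial ribosomal proteins had medians of 0.10 in SCI vs naïve, -0.01 in SCI vs sham and 0.09 in sham vs naïve, with Mrpl3 (69.3 scaled counts) and Mrpl37 (65.6) the most abundant. The 13 genes of coenzyme Q synthesis had medians of 0.13, -0.07 and 0.26 in the same order (Coq2, 67.7, and Coq9, 49.7 scaled counts).

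Genes that supply the chain were closer to the members. The 18 citric acid cycle genes had medians of -0.01 in SCI vs naïve, 0.06 in SCI vs sham and -0.07 in sham vs naïve. Ogdh, a subunit of the oxoglutarate dehydrogenase complex, had a mean of 321 scaled counts and Cs, citrate synthase, 255. The 14 carriers had medians of -0.07, 0.11 and -0.17, led by the phosphate carrier Slc25a3 (229 scaled counts) and the ADP/ATP carrier Slc25a4 (209). The 13 other genes that pass electrons to the chain or belong to it had medians of -0.01, 0.00 and 0.01, led by Gpd2 (131) and Etfdh (90.0). The 17 glycolysis genes, which act outside mitochondria, had medians of -0.15, 0.21 and -0.36, further from 0 than the nuclear members in each comparison. Hk1, the hexokinase of neurons, had 407 ± 21.9 scaled counts in SCI, 350.1 ± 72.0 in sham and 441 ± 88.3 in naïve libraries (SD, n = 5 each), and Pfkp, a phosphofructokinase, averaged 327 over all libraries. At an unadjusted p under 0.05, 9 of the 17 were lower in sham vs naïve, where 3.19% of all genes were lower.

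The mitochondrial rRNAs, which lie upstream of mt-Nd1 on the same precursor, were counted although mRNA was selected from total RNA. mt-Rnr1 averaged 95.8 scaled counts in SCI, 81.0 in sham and 126 in naïve libraries, and mt-Rnr2 145, 141 and 191. Per kilobase they had 106 and 101 scaled counts, against 192 to 251 for the 5 mRNAs with little or no copy. Of 22 mitochondrial tRNAs, mt-Tp and mt-Tc passed the filter.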

How the data were processed

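RNA from 15 libraries (5 SCI, 5 sham, 5 naïve) was read as single ends of 75 nt from a stranded mRNA kit. The submitters' processing notes name HISAT2, HTSeq, DESeq2 and the mm10 build. Their versions, the annotation, and the treatment of duplicate and multiply matching reads are not given in the sources used here. The deposited table is headed RPKM, but its signal values, as the authors deposited them, were whole reads divided by 1 constant per library with no division by length: 0 values were off a whole number at a tolerance of 1e-06. They are called scaled counts, and the design had foreseen RPKM. Of 54232 lines, 27 were named by a number (0.186 to 0.210% of reads) and were left out, and 97 symbols were repeated.

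Genes with a mean of at least 1 (16000) were tested on log2(scaled count + 1) with limma-trend (limma 3.58.1, R 4.3.3) over the 3 groups, with Benjamini-Hochberg adjustment and a threshold of 0.05. A fold change on this scale understates that of low genes. Recovered reads were tested with edgeR 4.0.16 and DESeq2 1.42.0. Alternatives changed the pseudocount, filter, scaling, block, groups in the fit, depth term, weights and libraries. Lengths, windows and printed sequences came from GENCODE M21 transcripts on GRCm38. The scripts were tested on simulated data.

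The members and lists were chosen with earlier results of these data known. Genes were named by rule: all mitochondrially encoded members, the 2 highest and the lowest nuclear member of each complex, the 4 largest differences in each direction, the isoform sets, the c subunits, the Sdh genes, and up to 2 of the highest genes of each list. Tfam, Ppargc1a, Ndufs3, Sdhc's length and the pseudogenes were added after their values were seen. A named item of this rule is not reported here.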

Additional observations from a re-analysis of the deposited data

Results flagged for a closer look

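Over 41 measures, each examined in the 3 groups of 5 libraries, 13 groups held a library far from the other 4 by Dixon's criterion. Chance meets this criterion in about 1 group in 20 for a single measure. The measures share libraries and genes and are not independent, so the count of 13 cannot be set against that rate. In 12 of the 13 it was sham 2, the sham library with the fewest reads (2568656, against 5346711 or more in the other sham libraries), and it was the highest. Its summed nuclear members were 2339 scaled counts for complex I (1543 to 1768 in the other sham libraries), 550 for complex II (379 to 426) and 709 for complex III (446 to 518). Among single genes, sham 2 had 250.8 scaled counts of mt-Nd2 (111 to 151), 269 of Sdha (191 to 198), 36.2 of Uqcrb (22.4 to 25.4) and 91.1 of Ndufa4 (40.6 to 54.5). It had 69.1 of Cox7a2 (32.2 to 42.0), 68.7 of Cox7a2l (39.8 to 45.8), 73.2 of Cox8a (39.1 to 46.7), 159 of Atp5a1 (81.4 to 92.7) and 72.4 of Atp5g1 (46.6 to 51.8). The remaining library was SCI 3, the lowest of its group for Sdhd with 75.5 scaled counts (82.6 to 84.1 in the other SCI libraries).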

How the results depend on the processing

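Libraries differed in reads by up to 5.65-fold, and the groups differed in depth. Library quality weights gave 34 member calls in SCI vs sham and 42 in sham vs naïve, against 0 with equal weights. Leaving out 1 library in turn gave 0 to 0 member calls in SCI vs naïve, 0 to 0 in SCI vs sham and 0 to 22 in sham vs naïve, the 22 without naïve 5. The nuclear medians then ranged over -0.16 to 0.01, 0.08 to 0.24 and -0.31 to -0.12 in these comparisons, and the mitochondrially encoded medians over -0.67 to -0.21, 0.18 to 0.47 and -0.97 to -0.50. With the log2 library total as a term, the sham vs naïve medians were 0.12 (nuclear) and 0.071 (mitochondrially encoded). With that term the differences of mt-Cytb were -0.067 in SCI vs sham and 0.053 in sham vs naïve, those of Atp5b 0.036 in SCI vs naïve, -0.067 in SCI vs sham and 0.10 in sham vs naïve, and those of Cox8a -0.025 in SCI vs sham and 0.12 in sham vs naïve, each in the other direction. Without naïve 1 and naïve 4, mt-Cytb (0.060) and Atp5b (0.085) turned in SCI vs naïve. The cause was not tested. Median-ratio size factors changed the median of all genes in sham vs naïve to 0.04, against 0.17 as deposited. The nuclear median in SCI vs naïve was then -0.14, against -0.06, and it was -0.12 with TMM factors, -0.12 with quantile normalization and -0.14 with DESeq2. In sham vs naïve it was -0.34, -0.33, -0.36 and -0.33 in turn. The mitochondrially encoded medians with DESeq2 were -0.62 in SCI vs naïve and -0.94 in sham vs naïve. With the replicate number as a block, 0 members were called in each comparison, and the nuclear medians were -0.06, 0.14 and -0.20. Of 15 same-numbered pairs, 2 had a correlation of deviations over 0.1 (range -0.221 to 0.219), so such libraries mostly did not deviate together. Whether same-numbered mice were handled together is not given in the sources used here.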
